A study of Mus musculus with 21 samples.

Results

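Complement is a cascade of proteases and receptors that tags cells and debris for removal, and this account follows 7 of its genes in cultured mouse cells. The genes were chosen by name, as the rows of the deposited gene count table for Cd55, Cd59a, C3, C4b, Cfb, Serping1 and C3ar1, and all 7 were found among its 24263 gene symbols. RNA sequencing covered 7 groups of 3 libraries. The 1C11NE cells, in 5 groups, derive from the strain 129 neuroectodermal line 1C11, which had been differentiated with dibutyryl cAMP over 12 days toward noradrenergic neurons. PBS cells received the vehicle, phosphate-buffered saline, and ACR cells received acrylamide, a reactive monomer toxic to nerve cells. The PBS-CM group grew in conditioned medium of BV2 cells that had received vehicle, the PBS-CM+ACR group in the same medium with acrylamide, and the ACR-CM group in conditioned medium of BV2 cells that had received acrylamide. BV2 is an immortalised microglial line of strain C57BL/6, and its 2 groups were BV2_PBS (vehicle) and BV2_ACR (acrylamide). Acrylamide was used at 1 mM for 24 h. Whether any of it remained in the ACR-CM medium is not stated. The base media of the lines differ in the labels, and a contrast of PBS-CM with PBS may therefore include that difference. Each line is a single established line. Separate cultures are not mentioned for the replicates, so p-values reflect only the variation among these samples, and that variation may be technical.

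In the classical and lectin pathways, proteases such as C1r, C1s and the MASPs act in steps that end with cleavage of C4 and C2. The products build a convertase that splits C3. The alternative pathway builds its own convertase from C3 and factor B, the product of Cfb. The C3a fragment signals through the receptor C3ar1, and the C3b fragment coats surfaces and opens the terminal steps that end in the membrane attack complex. Cells guard themselves with membrane regulators. CD55, or decay-accelerating factor, speeds the decay of C3 convertases, and CD59 blocks assembly of the membrane attack complex. Serping1 encodes C1 inhibitor, a secreted inhibitor of C1r, C1s and the MASPs. In the brain, microglia are known as carriers of complement receptors and as a source of C3.

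Library totals ran from 2762287 to 7391991 counts. Of 15 listed microglial markers, 14 were in the table. Their summed level was 6890 to 8355 CPM (counts scaled to a common library size) in BV2 cells and 16.1 to 40.8 CPM in 1C11NE cells, where 3 of them (Ptprc, Spi1 and Aif1) had 0 reads in every library. The neuronal label of 1C11NE had little support in defining markers. The 8 neuronal markers in the table summed to between 9.75 and 18.0 CPM, and the 4 noradrenergic markers in the table summed to between 0.288 and 3.25 CPM. On the first principal component of the 1C11NE libraries, PBS-CM replicate 1 (at -23.8) and PBS-CM+ACR replicate 3 (at -16.7) lay among the 6 libraries without conditioned medium (-38.7 to -1.59), whereas values of 8.68 to 32.3 were seen in the 7 remaining libraries with conditioned medium. Several results that rest on those 2 libraries, but not all, are also given without 1 or both of them. The libraries were picked from these same data, so results on conditioned medium without them are no separate support.

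The membrane regulator Cd55 has a near copy beside it on the same strand, Cd55b, and the sequences before their start sites show how far the pair is alike. In GRCm38 with the GENCODE vM21 annotation, Cd55 lies at chr1:130439027-130462744 and Cd55b at chr1:130388537-130423009, both on the minus strand. The 250 bases before each start in the RefSeq table (GRCm38.p6) are at chr1:130462745-130462994 for Cd55 and chr1:130423044-130423293 for Cd55b. They are printed on the gene's strand, and capitals mark runs of at least 10 identical bases in their alignment.
Cd55: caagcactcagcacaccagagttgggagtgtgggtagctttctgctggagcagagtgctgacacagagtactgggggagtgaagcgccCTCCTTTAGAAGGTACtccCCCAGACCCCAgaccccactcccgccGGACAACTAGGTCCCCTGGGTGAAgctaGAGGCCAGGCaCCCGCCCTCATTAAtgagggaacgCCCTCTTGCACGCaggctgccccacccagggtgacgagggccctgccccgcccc
Cd55b: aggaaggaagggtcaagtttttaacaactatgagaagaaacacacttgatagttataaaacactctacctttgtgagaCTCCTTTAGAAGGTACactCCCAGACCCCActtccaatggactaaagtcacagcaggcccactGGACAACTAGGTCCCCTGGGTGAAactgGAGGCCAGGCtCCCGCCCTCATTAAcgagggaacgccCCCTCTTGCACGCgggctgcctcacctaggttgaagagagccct

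The alignment paired 227 bases, of which 169 (74.4%) were identical, and 88 bases fell in the capital runs, the longest of 24. Promoter sequence was found in that table for 4 of the 7 members (Cd55, Cd59a, C3 and C3ar1). Short motifs were searched on both strands of these windows and of all 32851 promoters in the table. The cAMP response element TGACGTCA, held by 1.55% of all promoters, and the antioxidant-response core TGACNNNGC, held by 10.2%, had no match in the 4 windows. The NF-kB-type letters GGGANNNNCC, held by 17.6%, matched Cd55 at 61 to 52 bases before the start, Cd55b at 53 to 44, and C3 at 3 places. The AP-1 letters TGANTCA (6.75% of promoters) matched C3ar1 at 22 to 16 bases before the start, and the interferon-response letters GAAANNGAAA (2.98%) matched Cd59a at 187 to 178. A match of letters is a description of sequence and shows no binding.

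Cd55 was the member with the clearest difference in 1C11NE cells: its level was 2.01-fold lower with acrylamide. The PBS libraries held 257, 257 and 278 CPM of Cd55, and the ACR libraries held 134, 135 and 129 CPM. Every ACR library lay below every PBS library. The group means were 264 ± 12.1 CPM (SD, n = 3) with vehicle and 132 ± 3.17 CPM (SD, n = 3) with acrylamide. The log2 change was -1.01 ± 0.17 (SE) with an adjusted p of 0.0042 in edgeR's quasi-likelihood test. Of the 3 members abundant enough to test in the fit of 15 libraries (Cd55, Cd59a and C3), 1 fell and 0 rose, where 1.18% of the 12550 genes tested were called at an adjusted p below 0.05 and 0.717% were called lower. In bulk RNA, fewer cells of a type and less RNA per cell cannot be told apart.

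Summed mesenchymal and astrocyte markers were also lower in the ACR libraries. The microglial sum lay the other way, at 16.1 to 21 CPM in PBS libraries and 23.1 to 28.1 CPM in ACR libraries. The 6 mesenchymal markers in the table, of 7 listed, summed to 1307 to 1761 CPM in PBS libraries and 435 to 714 CPM in ACR libraries. Most of that sum came from 1 collagen gene, Col1a2, at 395 to 2233 CPM over the 1C11NE libraries. Every other gene in the sum stayed at 104 CPM or below. The 4 astrocyte markers in the table, of 5 listed, summed to 74.8 to 92.2 CPM with vehicle and 22.7 to 31.8 CPM with acrylamide. Slc1a3, the glutamate transporter of astrocytes, carried most of that sum, and the defining markers Gfap and Dcn stayed below 1 CPM in every 1C11NE library. Their part in the Cd55 result was not tested.

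**Figure D1:**
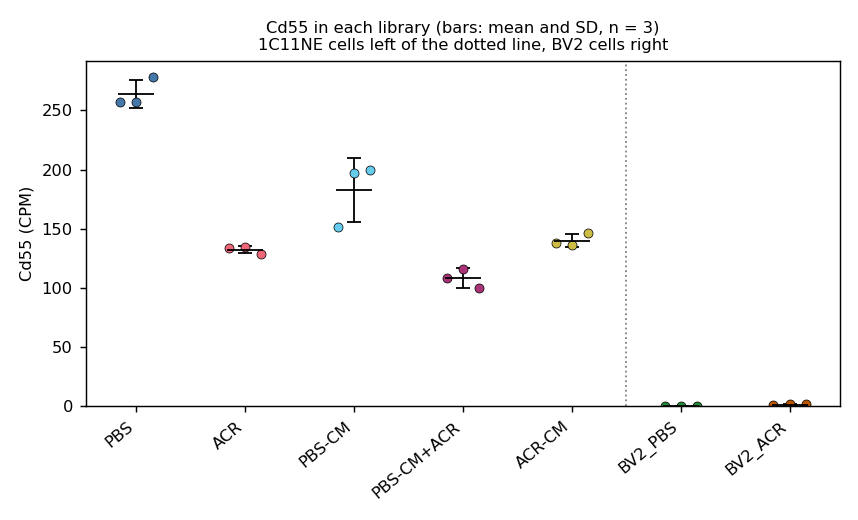
Cd55 level in CPM (vertical axis) for each library of the 7 groups, with bars at the mean and SD of 3 libraries. The PBS libraries lie at 257 to 278 CPM, the other 1C11NE libraries at 99.6 to 200 CPM, and the BV2 libraries below 2 CPM.

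Conditioned medium from BV2 cells went with intermediate Cd55 levels. The PBS-CM libraries held 152, 197 and 200 CPM, below all 3 PBS libraries, and replicate 1, a library that stands apart on the first component, was the lowest. The log2 difference from PBS was -0.54 ± 0.17 (SE) and did not pass edgeR's test (adjusted p 0.073). In the same comparison 0 of the 3 members tested were called by edgeR, 2 were below an unadjusted p of 0.05, DESeq2 called 1 (Cd55) and limma-voom 0. Of all genes tested, edgeR called 4.55%, DESeq2 10.2% and limma-voom 4.84%. An unadjusted edgeR p below 0.05 was seen for 3219 of the 12550 genes. With both libraries that stand apart left out, the Cd55 difference was smaller, -0.41, and passed at an edgeR adjusted p of 0.034, in a fit that called 35.1% of all genes. Both were picked from these same data for lying with libraries without conditioned medium, so that pass is no separate support. The astrocyte markers summed to 30.5 to 36.2 CPM in PBS-CM libraries, below the PBS libraries, and their part was not tested. This comparison and that of ACR with PBS share the PBS libraries.

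Adding acrylamide to the conditioned medium went with lower Cd55 values in every library. The PBS-CM+ACR libraries held 109, 116 and 99.6 CPM, all below the PBS-CM libraries. The log2 difference between these groups was -0.78 ± 0.17 (SE), with an edgeR adjusted p of 0.061. Here 0 of 3 members were called by edgeR, 1 (Cd55) had an unadjusted p below 0.05, and DESeq2 and limma-voom each called 1 (Cd55). Of all genes tested, edgeR called 0.375%, DESeq2 1.03% and limma-voom 0.382%. For 1087 of the 12550 genes the unadjusted edgeR p was below 0.05. Without PBS-CM replicate 1 the difference was -0.90 (edgeR adjusted p 0.018, with 0.348% of all genes called), and without both libraries that stand apart it was -0.82 (edgeR adjusted p 0.018, with 0.486% called). Without PBS-CM+ACR replicate 3 alone the difference was -0.71 and did not pass (edgeR adjusted p 0.096). In a fit of the compared libraries alone the edgeR adjusted p was 0.82. The mesenchymal markers again lay lower, at 589 to 1453 CPM with acrylamide against 1133 to 2391 CPM without, with overlapping ranges. The astrocyte markers summed to 14.9 to 20.4 CPM with acrylamide and 30.5 to 36.2 CPM without, with no overlap, and the part of both lists was not tested.

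The acrylamide difference in Cd55 was not shown to depend on conditioned medium. The log2 change with conditioned medium minus the change without it was 0.23 ± 0.24 (SE), with an edgeR adjusted p of 1.0. In this interaction edgeR, DESeq2 and limma-voom each called 0 of the 3 members, 0 members had an unadjusted p below 0.05, and 0.0% of all genes were called by edgeR. The unadjusted edgeR p was below 0.05 for 347 of 12550 genes. A p that misses the threshold does not show that the 2 changes are equal.

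Medium from acrylamide-treated BV2 cells went with Cd55 levels between those of PBS-CM and PBS-CM+ACR cells. The ACR-CM libraries held 138, 136 and 146 CPM, with no overlap with either group. The log2 difference was -0.39 ± 0.17 (SE) from PBS-CM (edgeR adjusted p 0.34) and 0.39 ± 0.17 (SE) from PBS-CM+ACR (edgeR adjusted p 0.91), and neither passed. In each of these comparisons edgeR, DESeq2 and limma-voom called 0 of the 3 members and 1 member (Cd55) had an unadjusted p below 0.05 in edgeR, while edgeR called 0.924% of all genes against PBS-CM and 0.0159% against PBS-CM+ACR. An unadjusted edgeR p below 0.05 was seen for 1614 of 12550 genes against PBS-CM and for 688 against PBS-CM+ACR. In the latter, DESeq2 gave no adjusted p for 1 member and for 2 of the other complement genes described further on. PBS-CM+ACR cells had a Cd55 difference of -0.31 ± 0.17 (SE) from ACR cells (edgeR adjusted p 0.31), in a comparison where edgeR, DESeq2 and limma-voom each called 0 of the 3 members, 1 member (Cd59a) had an unadjusted edgeR p below 0.05 and edgeR called 3.96% of all genes. There, 2646 of 12550 genes had an unadjusted edgeR p below 0.05.

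In order of mean level, Cd55 ran PBS, PBS-CM, ACR-CM, ACR, PBS-CM+ACR, BV2_ACR and BV2_PBS. No neighbouring groups in that order overlapped, and among the 1C11NE groups the narrowest gap was between the lowest ACR-CM library (136 CPM) and the highest ACR library (135 CPM). The order is a description, and the share of all genes separating likewise was not counted. Among the 1C11NE groups no tested neighbours passed edgeR's test with all libraries, and ACR-CM against ACR was not tested. The BV2 groups held 0 to 2 counts per library with vehicle and 5 to 7 with acrylamide. Over the 15 1C11NE libraries, the genes with the most similar pattern to Cd55 were Ptn (pleiotrophin, a secreted growth factor), Igfbp4 (an insulin-like growth factor binding protein) and Slc1a3. Pearson's r of log2(CPM + 0.5) with Cd55 was 0.984 for Ptn, 0.932 for Igfbp4 and 0.915 for Slc1a3, among 6355 genes averaging 20 CPM or more. The libraries share treatments and medium, so these coefficients are a description with no test.

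The reads of Cd55 can be mixed with those of its near copy and of an antisense gene. Of all 50-base windows in Cd55 transcripts, 8.0% also occur in Cd55b, and Cd55b took 1.77% of the pair's reads over the 1C11NE libraries. With both genes summed, the log2 change with acrylamide was -1.0 (edgeR adjusted p 0.0046). Gm16083, which overlaps Cd55 on the other strand, had 0 to 10 counts per 1C11NE library where Cd55 had 344 to 1985. Use of strand in the authors' counting is not given in the sources used here, so the reads of these overlapping genes cannot be told apart.

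Cd55b itself, a copy known in mice mainly from the male germ line, was sparse. It held 5.07, 6.35 and 4.47 CPM in PBS libraries and 1.16, 2.92 and 2.67 CPM in PBS-CM libraries, with no overlap between these groups. It fell in PBS-CM against PBS by 1.22 on the log2 scale (SE 0.33, edgeR adjusted p 0.046). Leaving out any single PBS library, or replicate 2 or 3 of PBS-CM, ended that call (edgeR adjusted p 0.065 to 0.16). The ACR libraries held 3.14, 2.34 and 4.06 CPM, a log2 difference from PBS of -0.76 ± 0.33 (SE) that did not pass (edgeR adjusted p 0.36).

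Cd59a, the second membrane regulator, was present at low levels in every 1C11NE library, with 0 calls by edgeR, DESeq2 or limma-voom over the 7 1C11NE comparisons with all libraries. Its unadjusted edgeR p was below 0.05 in 2 of them, PBS-CM against PBS and PBS-CM+ACR against ACR. It lies at chr2:104095801-104115354 on the plus strand (GRCm38, GENCODE vM21). The PBS libraries held 6.93, 7.64 and 12.0 CPM, and the PBS-CM libraries held 10.1, 17.7 and 15.2 CPM. Replicate 1 of PBS-CM lay within the PBS range and the other 2 lay above it. The ACR libraries held 8.07, 9.19 and 6.84 CPM. The PBS-CM+ACR libraries held 15.8, 11.3 and 10.9 CPM, and the ACR-CM libraries held 10.3, 9.11 and 15.2 CPM. Ranges of every neighbouring pair of 1C11NE groups overlapped in the order of mean level, which was PBS-CM, PBS-CM+ACR, ACR-CM, PBS and ACR.

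For PBS-CM against PBS, the log2 difference in Cd59a was 0.71 ± 0.27 (SE) with an edgeR adjusted p of 0.11. Without PBS-CM replicate 1 it was 0.91 (edgeR adjusted p 0.020), in a fit that called 25.5% of all genes. That library was singled out in these same data, so this pass is no separate support. For PBS-CM+ACR against ACR the log2 difference in Cd59a was 0.62 ± 0.29 (SE), with an edgeR adjusted p of 0.23. Cd59a had 32 to 115 counts per 1C11NE library. Its near copy Cd59b took 10.4% of the pair's reads and shares 3.87% of the 50-base windows of Cd59a transcripts. The genes most similar to Cd59a over the 15 libraries were Taf1d (r = 0.957), Zranb2 (0.917) and Tbpl1 (0.915), again as a description.

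**Figure D2:**
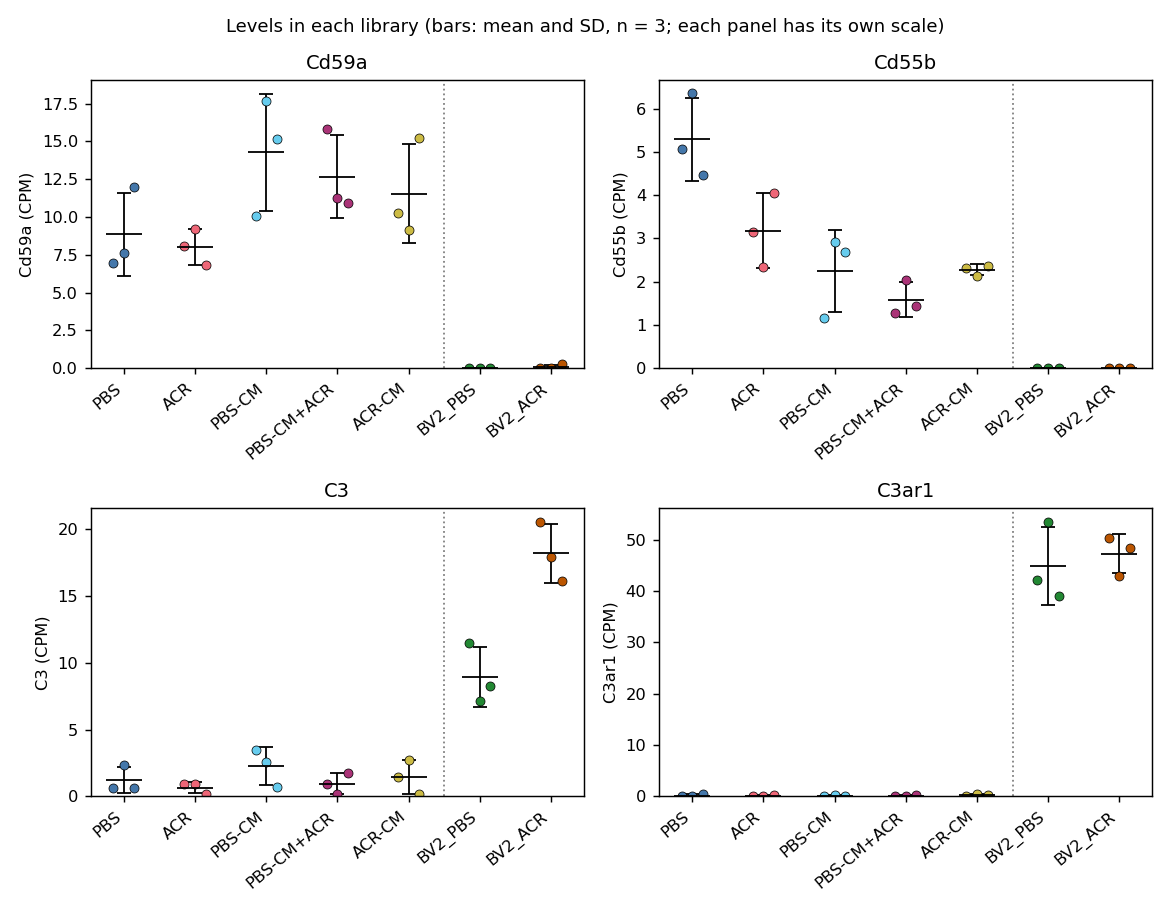
Levels in CPM (vertical axis, a separate scale per panel) of Cd59a, Cd55b, C3 and C3ar1 in each library of the 7 groups, with bars at the mean and SD of 3 libraries. Cd59a and Cd55b are seen in 1C11NE libraries, and C3 and C3ar1 are highest in BV2 libraries, where C3 lies at 7.13 to 11.5 CPM with vehicle and 16.1 to 20.6 CPM with acrylamide.

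C3, the component on which all pathways converge, was higher in BV2 cells given acrylamide. The gene lies at chr17:57203970-57228136 on the minus strand (GRCm38, GENCODE vM21). The BV2_PBS libraries held 11.5, 7.13 and 8.25 CPM of C3, and the BV2_ACR libraries held 20.6, 17.9 and 16.1 CPM. Every BV2_ACR library lay above every BV2_PBS library. The means were 8.95 ± 2.25 CPM (SD, n = 3) with vehicle and 18.2 ± 2.22 CPM (SD, n = 3) with acrylamide. The log2 change was 1.01 ± 0.24 (SE) with an edgeR adjusted p of 0.0071. Of the 2 members tested in BV2 (C3 and C3ar1), 1 rose and 0 fell, in a fit that called 16.5% of 10890 genes, with 7.17% called higher.

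C3 was scarce in 1C11NE cells, with 1 to 18 counts per library and group means from 0.670 to 2.27 CPM. Values within a group spread widely: the PBS libraries held 5, 18 and 3 counts and the PBS-CM libraries 18, 17 and 4. C3 passed the filter on low counts in that fit and was called in 0 of the 7 1C11NE comparisons by edgeR, DESeq2 or limma-voom, with an unadjusted edgeR p below 0.05 in 0 of them. At these counts only large differences would have been detectable.

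C3ar1, which encodes the receptor for C3a, was abundant in BV2 cells and almost absent from 1C11NE cells. It lies at chr6:122847138-122856161 on the minus strand (GRCm38, GENCODE vM21). The BV2_PBS libraries held 42.1, 53.4 and 39.1 CPM, and the BV2_ACR libraries held 50.3, 43.0 and 48.4 CPM. The ranges overlapped. The log2 difference between them was 0.07 ± 0.16 (SE), with an edgeR adjusted p of 0.83, and its sign changed without BV2_PBS replicate 3, to -0.034. The 1C11NE libraries held 0 to 2 counts each, including 1, 2 and 2 in ACR-CM.

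The other components and the secreted inhibitor were near the limit of detection in both lines. C4b (chr17:34728380-34743882, minus strand, in GRCm38 like the other positions here), the C4 component, had 0 to 5 counts in any library, and 34.6% of its 50-base transcript windows are shared with its copy C4a. Cfb (chr17:34856374-34862518, minus strand), the factor B gene, had 0 to 3 counts. Serping1 (chr2:84765387-84775444, minus strand), which encodes C1 inhibitor, had 1, 1 and 6 counts in PBS libraries. It had 0 counts in all ACR, ACR-CM, BV2_PBS and BV2_ACR libraries. A count of 0 over the 3 ACR libraries allows up to 0.204 CPM, taking 3 counts as the limit and counting error only. These 3 genes did not pass the filter and were not tested in the main fits. Without the filter they were called in no comparison, but at this depth little could have been detected in them.

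**Figure D3:**
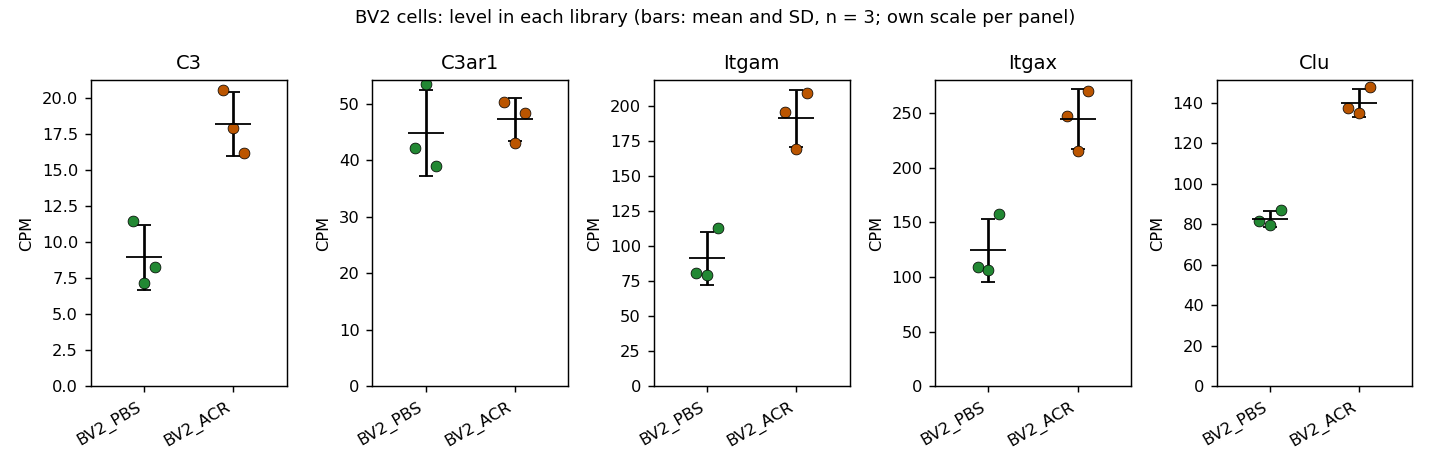
Levels in CPM (vertical axis, from 0, a separate scale per panel) of C3, C3ar1, Itgam, Itgax and Clu in each BV2 library, with bars at the mean and SD of 3 libraries. The BV2_ACR libraries lie above the BV2_PBS libraries for C3, Itgam, Itgax and Clu, and the ranges overlap for C3ar1.

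Itgam and Itgax, alpha chains of receptors for C3 fragments, rose in the same BV2 cells, as did Clu. A list of 43 other complement genes was counted beside the members. It held 32 genes in the table, of which 10 were tested in BV2, and 3 rose and 0 fell by edgeR, where edgeR called 16.5% of all genes and 7.17% as higher. The median log2 change was 0.34 over the 10 genes and 0.033 over all genes tested. Itgam encodes the alpha chain of complement receptor 3, which binds the C3 fragment iC3b. Its level was 81.0, 79.4 and 113 CPM with vehicle and 195, 169 and 209 CPM with acrylamide. No libraries overlapped, and the log2 change was 1.06 ± 0.14 (SE, edgeR adjusted p 8.8e-05).

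Itgax, the alpha chain of complement receptor 4, held 109, 106 and 158 CPM with vehicle and 247, 215 and 270 CPM with acrylamide. It rose by 0.96 ± 0.15 (SE) on the log2 scale (edgeR adjusted p 0.00024). Clu encodes clusterin, a secreted protein that can inhibit the terminal complex. It held 81.3, 79.7 and 86.9 CPM with vehicle and 137, 135 and 148 CPM with acrylamide, a log2 change of 0.75 ± 0.12 (SE, edgeR adjusted p 0.00040). All BV2_ACR libraries lay above all BV2_PBS libraries for Itgax and for Clu. Itgb2, the beta chain that both receptors share, held 20.0, 24.6 and 18.2 CPM with vehicle and 31.2, 26.0 and 33.3 CPM with acrylamide. Its log2 difference of 0.52 ± 0.19 (SE) did not pass (edgeR adjusted p 0.068). Cd46, a membrane regulator, lay the other way, at 7.16, 5.83 and 5.23 CPM with vehicle and 2.90, 3.75 and 2.02 CPM with acrylamide. The libraries did not overlap, and the Cd46 log2 difference of -1.09 ± 0.39 (SE) did not pass (edgeR adjusted p 0.060). Itgam and Itgax are also general markers of the microglial state, and the summed level of the separate list of 14 microglial markers was 7510 to 8355 CPM with vehicle and 6890 to 8102 CPM with acrylamide.

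In 1C11NE cells, 12 genes of that list were tested, and a lectin-pathway protease fell with acrylamide. In ACR against PBS 0 rose and 1 fell by edgeR, which called 1.18% of all genes, with a median log2 change of -0.72 over the 12 genes and -0.0024 over all genes. With both libraries that stand apart left out of the fit, 3 of 13 list genes fell (C1ra, C1s1 and Masp1), C1ra and C1s1 being genes of the classical proteases, and 4.34% of all genes were called.

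Masp1, a protease of the lectin pathway, held 14.9, 11.8 and 11.8 CPM in PBS libraries and 6.50, 2.88 and 5.98 CPM in ACR libraries. It fell by 1.36 on the log2 scale (SE 0.32, edgeR adjusted p 0.048), with no overlap. The Masp1 call ended when any 1 of the 6 libraries was left out (edgeR adjusted p 0.093 to 0.22). The mesenchymal and astrocyte marker sums given beside Cd55 were lower in the same ACR libraries, and their part in this change was not tested.

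Conditioned medium went with lower Masp1. In PBS-CM against PBS, 0 of the 12 list genes rose and 2 fell by edgeR (Cd55b, given above, and Masp1), which called 4.55% of all genes, with a median log2 change of -0.096 against -0.0039 over all genes. The PBS-CM libraries held 4.25, 5.83 and 3.21 CPM of Masp1, all below PBS, and Masp1 fell by 1.53 on the log2 scale (SE 0.32, edgeR adjusted p 0.013). This call ended without PBS replicate 1 (0.075) or PBS-CM replicate 3 (0.085). DESeq2 called 4 of the 12 genes, 1 higher and 3 lower, and 10.2% of all genes. With both libraries that stand apart left out, edgeR called 7 of 13 list genes tested, 3 higher and 4 lower, in the fit that called 35.1% of all genes. As these libraries were picked from the same data, those calls are no separate support.

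Among acrylamide-treated cells, conditioned medium went with lower Cfp. In PBS-CM+ACR against ACR, 0 list genes rose and 1 fell by edgeR, which called 3.96% of all genes, with a median log2 change of -0.0013 over the 12 genes. With both libraries that stand apart left out, 2 of 13 rose and 1 fell, in a fit that called 24.6% of all genes. Cfp encodes properdin, which stabilises the alternative convertase. It held 9.41, 9.01 and 4.70 CPM in ACR libraries and 2.53, 1.43 and 1.44 CPM in PBS-CM+ACR libraries, and it fell by 2.14 on the log2 scale (SE 0.55, edgeR adjusted p 0.037). The Cfp call ended when ACR replicate 1 or 2, or PBS-CM+ACR replicate 1 or 2, was left out (edgeR adjusted p 0.086 to 0.18), and limma-voom called 0 of the 12 list genes here (adjusted p of Cfp 0.063). In the other comparisons of 1C11NE groups edgeR, DESeq2 and limma-voom each called 0 of the 12 list genes. Their unadjusted edgeR p was below 0.05 for 5 genes in PBS-CM+ACR against PBS-CM, 1 in ACR-CM against PBS-CM, 2 in ACR-CM against PBS-CM+ACR and 2 in the interaction of acrylamide with medium. Over all 12550 genes tested, the counts below it were 1087, 1614, 688 and 347 in the same order.

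**Figure D4:**
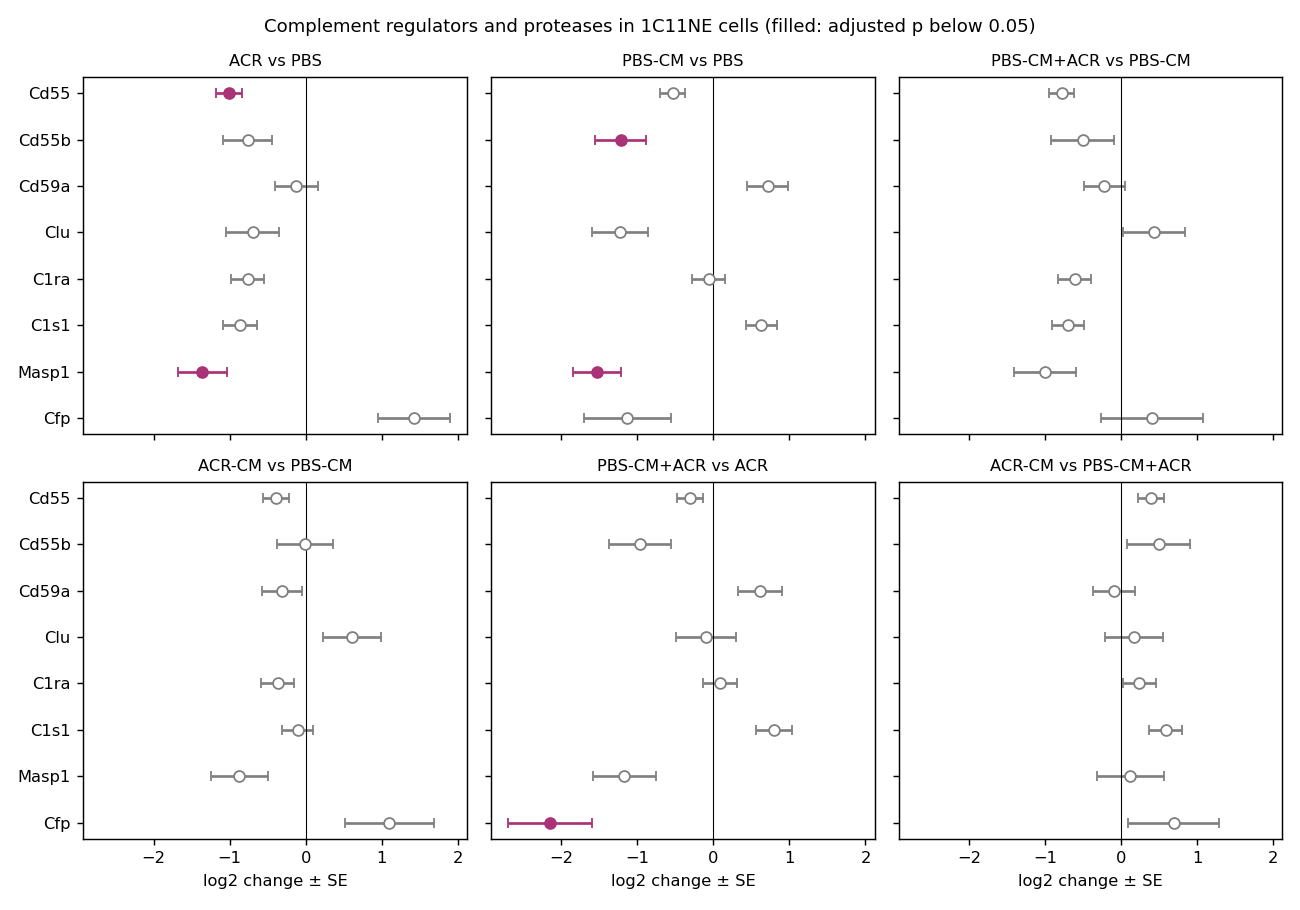
Log2 change with its SE (horizontal axis) for 8 complement regulators and proteases in 6 comparisons of 1C11NE groups, filled where the edgeR adjusted p is below 0.05. In ACR against PBS, Cd55 (-1.01) and Masp1 (-1.36) are filled, and in PBS-CM against PBS, Masp1 (-1.53) and Cd55b (-1.22) are filled, all on the side of lower levels.

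The members C4b, Cfb and Serping1 were near the limit of detection in both lines, and the members tested divided between the lines. In BV2_PBS against PBS, 4 members were tested in the fit of all 21 libraries, and 2 were higher in BV2 (C3 and C3ar1) and 2 lower (Cd55 and Cd59a). In this comparison edgeR called 79.2% of 13569 genes, 36.1% higher and 43.1% lower, so a call alone sets no member apart. Cd55 and Cd59a entered this fit only through their level in 1C11NE, and C3ar1 only through its level in BV2. A difference between the lines was thus built into their selection, and no adjusted p is given for them. The BV2_PBS libraries held 0, 1 and 2 counts of Cd55 where PBS libraries held 1926, 1985 and 1368. The ratio of summed, scaled counts was 892, with an exact 95% counting interval of 305 to 4327. Cd59a had 0 counts in all BV2_PBS libraries and 170 counts over the PBS libraries, and it was at least 28.7-fold lower in BV2_PBS when 3 counts over the group are taken as the limit.

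C3 was 6.98-fold higher in BV2_PBS by the ratio of summed, scaled counts (exact 95% counting interval 4.47 to 11.2), from 92 counts against 26 (log2 2.80 ± 0.56 SE, edgeR adjusted p 0.00010). C3ar1 was 298-fold higher on the same measure (101 to 1453), from 454 counts against 3 (log2 8.0 ± 0.42 SE). The lines also differ in strain and medium, which cannot be told apart from cell type here. Of the other list, 16 genes were tested, of which 7 were higher and 7 lower in BV2_PBS.

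BV2 held almost no Cd55, so the acrylamide response of Cd55 in that line rests on very few reads. The BV2_PBS libraries had 0, 1 and 2 counts and the BV2_ACR libraries 5, 6 and 7, or 0, 0.324 and 0.550 CPM against 1.21, 1.73 and 1.77 CPM. The ratio was 5.30, with an exact 95% counting interval of 1.55 to 28.1. The gene was too scarce to be tested in the BV2 fit and entered the joint fit only through its level in 1C11NE. In that fit the log2 change in BV2 minus that in 1C11NE was 3.31 ± 0.54 (SE, edgeR adjusted p 0.0044), and it did not pass without BV2_PBS replicate 1 (2.75, edgeR adjusted p 0.063). At 3 and 18 counts per BV2 group these values are given as a description of the fit, and no difference in response is read from them. Of the 4 members tested for this difference, 1 (Cd55) was called, where edgeR called 0.567% of all genes and 0.339% as higher. For C3 the difference between lines was 1.90 ± 0.92 (SE) and did not pass (edgeR adjusted p 0.34). Of 16 other list genes edgeR and limma-voom called 0 and DESeq2 called 1 (Clu), and 2 had an unadjusted edgeR p below 0.05. Over all 13569 genes, DESeq2 called 177 higher and 326 lower, and 2012 had an unadjusted edgeR p below 0.05.

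Traces of BV2 genes in 1C11NE cells were looked for beside these results, since conditioned medium came from BV2 cells. The microglial markers summed to 16.1 to 21 CPM in PBS, 23.1 to 28.1 in ACR, 23.6 to 27.8 in PBS-CM, 29.4 to 34.6 in PBS-CM+ACR and 28.3 to 40.8 CPM in ACR-CM libraries, with Cd14, a co-receptor for bacterial lipopolysaccharide, the highest single value at 15.6 CPM. C3ar1 stayed at 0 to 2 counts in every 1C11NE library. The sums of the ACR libraries, which had no conditioned medium, overlapped those of the PBS-CM libraries. The part of these marker reads in the differences with conditioned medium was not tested.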

How the data were processed

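The authors deposited raw read counts per gene symbol with no normalisation for all 21 libraries, 24263 symbols in all. Polyadenylated RNA was selected with oligo(dT) beads, and enzyme-fragmented libraries were read on an Ion GeneStudio S5, per the labels' protocols. Bowtie2 2.2.5 is named in the submitters' processing notes. Genome build, annotation, counting program and strand use: not given in the sources used here, so reads of near copies can be split or lost.

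Libraries were scaled by TMM, low genes removed by edgeR's filterByExpr, and groups compared by the robust quasi-likelihood test of edgeR 4.0.16 in R 4.3.3, adjusted by Benjamini-Hochberg over all genes, with calls at an adjusted p below 0.05. SE is the log2 change divided by the square root of F. Fits held 15 libraries of 1C11NE (12550 genes), 6 of BV2 (10890) and all 21 (13569). CPM used TMM factors over all 21 libraries. The tests were first run on simulated counts. DESeq2 1.42.0, limma-voom 3.58.1, other scaling, filters, sample sets, left-out replicates and a replicate block were alternatives. Intervals and limits from counts cover counting error only.

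Replicates differed beyond sampling noise (chi-square 2.53 to 60.6 per degree of freedom), so each counted as 1 sample. In the BV2 groups, same-numbered replicates deviated together (r 0.116 to 0.276), so the numbers were taken to pair them. The BV2 values given above are from the fit without that pairing. In BV2 the replicate block changed no member's call and ended no list call. List calls it may have added are not given here, so the results of Itgb2 and Cd46 hold for the unpaired fit only. Over all genes the block gave 1035 calls higher and 1320 lower, against 781 and 1016 without it. The genes named beside the members were those called in a comparison and near copies of members, plus the 3 most similar genes. The members and lists were chosen with earlier results of these data known. Some items of the lists are not reported here and are left out of the list counts and marker sums.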

Additional observations from a re-analysis of the deposited data

Results flagged for a closer look

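An interaction test for Cd55 passed its threshold: the log2 change with acrylamide in BV2 minus that in 1C11NE was 3.31 ± 0.54 (SE, edgeR adjusted p 0.0044). Cd55 was too scarce for a test in BV2 alone, with 3 counts over the BV2_PBS libraries and 18 over the BV2_ACR libraries, and entered this fit only through its level in 1C11NE. Without BV2_PBS replicate 1 the value was 2.75 with an edgeR adjusted p of 0.063, so no difference in response is read from it.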

How the results depend on the processing

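Of 150 recounts of called members, 142 stayed within 1.5 times the count with all libraries. The 8 others were these. In PBS-CM against PBS, where edgeR called 0 members, DESeq2 called 1, leaving out single replicates gave 0 to 1, and dropping the 2 libraries that stand apart (PBS-CM replicate 1 with PBS-CM+ACR replicate 3) gave 2. In PBS-CM+ACR against PBS-CM, also 0, DESeq2 gave 1, limma-voom 1, single replicates 0 to 1 and both libraries together 1. In the difference between lines, single replicates gave 0 to 1. The log2 change of C3ar1 in BV2 ran from -0.034 to 0.22 without single replicates. The cause was not tested. Leaving out both libraries and summing near copies were chosen after seeing the data.

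The Cd55 change with acrylamide kept its call in every alternative run: -1.03 to -0.96 without single replicates (edgeR adjusted p 0.011 to 0.029). With the replicate block it was -1.01, and the block changed no member's call; it ended the list calls of Masp1 in ACR against PBS and of Cd55b in PBS-CM against PBS (edgeR adjusted p 0.11 and 0.069) and of Cfp in PBS-CM+ACR against ACR (0.063). Same-numbered 1C11NE samples did not deviate together (r -0.809 to 0.704), so the numbers were not taken as pairs. A fit of only the compared libraries ended the call of Cd55b in PBS-CM against PBS (0.10), and limma-voom that of Cfp (0.063). C4b, Cfb and Serping1 are limited by depth.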
